A study of Homo sapiens with 12 samples.

Results

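The ChIP-seq peak lists of methionine-restricted HCT116 cells were examined for where monomethylated lysine 9 of histone H3 (H3K9me1) lay relative to trimethylated lysine 9 (H3K9me3). The members are the 4 restricted ChIP libraries of the series' 12 samples, chosen by label: 2 H3K9me1 and 2 H3K9me3 libraries, lettered A and B. HCT116 is an established human colorectal carcinoma line, used here at passage 19. Restricted cells were rinsed and kept for 24 hr in RPMI-1640 lacking methionine, with 10% serum. Control cells (0 hr) were grown in RPMI-1640 with the same serum, and their 2 libraries per mark are used only for comparison. No 24 hr culture in complete medium is among the samples, so the effect of restriction and that of time cannot be told apart. The labels leave unsaid whether the letters A and B stand for separate cultures, so the spread between them may be technical.

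Methionine is converted to S-adenosylmethionine (SAM), the methyl donor of histone methyltransferases. Lysine 9 of H3 can carry 1, 2 or 3 methyl groups. H3K9me3 is bound by HP1 proteins and marks silent heterochromatin, above all the satellite repeats beside centromeres and the KRAB zinc finger gene clusters. H3K9me1 is the lowest of the 3 states, a substrate from which SUV39H enzymes make H3K9me3, and is also found over transcribed genes. The question these 4 lists can address is narrow: whether H3K9me1 regions were dense at the called H3K9me3 peaks after methionine restriction.

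The 4 lists differ in ways that bear on every value below. Restricted A held 1880 H3K9me3 peaks on chromosomes 1 to 22 and X, and restricted B held 674. These peaks covered only 0.0583% (A) and 0.0234% (B) of those chromosomes, so values at peaks describe a small part of the genome. The H3K9me1 lists held 387436 regions in A and 760945 in B. Restricted A stands apart among the H3K9me1 libraries: it had the most reads (39452512, against 35134998 in B) but the smallest share of sequence under H3K9me1. That share, over the chromosomes each list covers, was 5.35% in A and 14.03% in B. The A list omits chromosomes 15 and X and the B list omits 3, 18, 22 and X, so 18 chromosomes are in both. H3K9me1 was called at a loose threshold, and 99.3% of the A regions and 99.2% of the B regions had a −log10 p below 2. Both marks of a letter were called against the same input, so same-letter pairs share an input. Crossed-letter pairs have different inputs but share a sequencing lane, per the names in the file headers.

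H3K9me1 was denser inside H3K9me3 peaks than elsewhere in both restricted libraries. Relative density here is the share of bases under H3K9me1 in a place divided by that share over all chromosomes the H3K9me1 list covers. A value of 1 is thus the list's average. The highest value it can take is lower for H3K9me1 B, whose list covers the larger share of sequence. For H3K9me1 A in the H3K9me3 A peaks, 649 of 1675 kb lay under H3K9me1, or 38.7%, a relative density of 7.23. For H3K9me1 B in the H3K9me3 B peaks, 185 of 612 kb lay under H3K9me1, or 30.2%, a relative density of 2.15. The crossed pairs were lower in both cases. H3K9me1 A had a relative density of 3.52 in the H3K9me3 B peaks, where it covered 18.8% of bases. H3K9me1 B had 1.84 in the H3K9me3 A peaks, where it covered 25.9%. In the B peaks H3K9me1 B thus covered the larger share, although H3K9me1 A had the higher relative density. The mean relative density was 4.69 ± 3.59 (SD, n = 2) over same-letter pairs and 2.68 ± 1.18 (SD, n = 2) over crossed pairs. Same-letter exceeded crossed density by 3.71 for H3K9me1 A and by 0.310 for H3K9me1 B, and this difference has no test because the 4 pairs are built from 4 libraries. The part of the shared input in it was not tested. The measure is symmetric: the H3K9me3 density inside H3K9me1 regions has the same value.

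**Figure D1:**
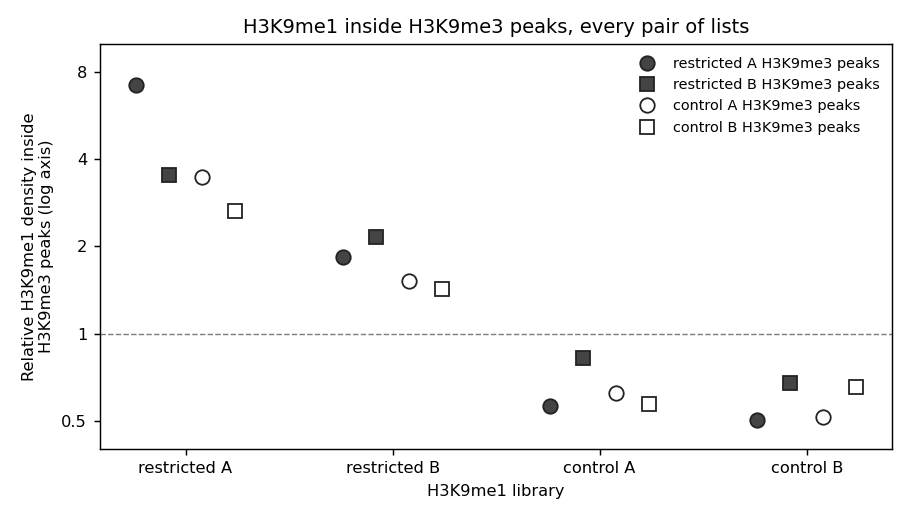
Relative H3K9me1 density inside H3K9me3 peaks (log axis) for each H3K9me1 library (x axis), with 1 point per H3K9me3 list; filled points are restricted and open points control H3K9me3 lists, and circles are A and squares B. All 8 points of the restricted H3K9me1 libraries lie above 1 (1.43 to 7.23) and all 8 of the control H3K9me1 libraries lie below it (0.503 to 0.823).

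Over the whole lists, H3K9me1 of control cells was sparser inside H3K9me3 peaks than elsewhere, but this direction turned with a stricter H3K9me1 threshold. With H3K9me1 regions of −log10 p of at least 1.5 the control same-letter mean was 1.32, against 26.5 in restricted cells. With H3K9me3 peaks of −log10 q of at least 5, the control same-letter mean stayed below 1, at 0.898, against 3.07 in restricted cells. The control letters differed there, at 1.12 in A and 0.679 in B. Control density inside these peaks over that 100 to 200 kb away was 1.32, against 3.69. The density 100 to 200 kb away was itself low, at 0.731 in control A and 0.607 in control B. With the whole lists, the control same-letter densities were 0.625 for A and 0.656 for B (0.640 ± 0.0221, SD, n = 2), and the crossed densities were 0.571 and 0.517. Restricted minus control was 4.05 over the same-letter pairs (exact permutation p = 0.333, two-sided). This is the smallest p that 2 against 2 pairs can give, so the test cannot pass 0.05. The control H3K9me1 lists cover 20 (A) and 10 (B) chromosomes, against 21 and 19 in the restricted lists. On the 8 chromosomes that all H3K9me1 lists cover, the difference was 3.57 (4.19 against 0.617). The size of 4.05 rests largely on restricted A: without it the difference was 1.51, and without restricted B it was 6.59. The restricted and control values did not overlap in any pairing.

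The direction depended on which H3K9me1 library was read and not on which H3K9me3 list it was read against. At the H3K9me3 peaks of the control cells, called against other inputs, H3K9me1 of restricted A had relative densities of 3.46 (control A peaks) and 2.65 (control B peaks). H3K9me1 of restricted B had 1.51 and 1.43 there. Conversely, at the H3K9me3 peaks of restricted A, H3K9me1 had 0.564 in control A and 0.503 in control B. At the peaks of restricted B the controls had 0.823 and 0.673. With 1 common set of 1380 merged H3K9me3 peaks on the 8 chromosomes that all H3K9me1 lists cover, the densities were 4.74 and 1.65 in restricted A and B and 0.501 and 0.532 in control A and B. At these common peaks both restricted libraries lay above both controls.

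Counted per peak, most H3K9me3 peaks of the restricted cells held some H3K9me1 of their own letter. Of 1794 A peaks on covered chromosomes, 1305 (72.7%, 95% Wilson interval 70.6% to 74.8%) overlapped H3K9me1 A by at least 1 bp. Of 608 B peaks, 415 (68.3%, 64.5% to 71.8%) overlapped H3K9me1 B. For the crossed pairs the shares were 48.3% (44.4% to 52.2%; H3K9me1 A in B peaks) and 59.2% (56.8% to 61.5%; H3K9me1 B in A peaks). H3K9me1 B covers more of the genome than H3K9me1 A, so the shares of the 2 H3K9me1 libraries cannot be set against each other. How often stretches of the same width elsewhere would touch a region was not computed, so a share overlapping by 1 bp does not by itself show enrichment. Control same-letter shares were 18.8% (16.7% to 21.1%) in A and 32.1% (27.7% to 36.9%) in B. These intervals cover counting error only. The control H3K9me1 lists covered 11.18% (A) and 14.96% (B) of sequence, against 5.35% and 14.03% in the restricted lists. Per-peak values of control and restricted lists are therefore not adjusted for covered share. Many peaks were covered nearly whole: 519 A peaks (28.9%) and 97 B peaks (16.0%) lay under same-letter H3K9me1 for 90% or more of their length. In the controls 18 (1.47%) and 17 (4.40%) did. The median A peak was covered for 41.4% of its length and the median B peak for 27.5%, while the control medians were 0.

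The density dropped steeply within 2 kb of the peaks. In H3K9me1 A around H3K9me3 A peaks, relative density fell from 7.23 inside to 3.23 in the first kb and 1.29 in the second. In H3K9me1 B around H3K9me3 B peaks it went from 2.15 inside to 1.09 and 0.670. The crossed pairs took the same course, from 3.52 to 2.22 and 1.05 for H3K9me1 A, and from 1.84 to 1.07 and 0.692 for H3K9me1 B. Within the peaks density was flat. Over 5 equal parts of each peak, it ranged from 7.10 to 7.45 for A with A and from 2.06 to 2.29 for B with B.

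**Figure D2:**
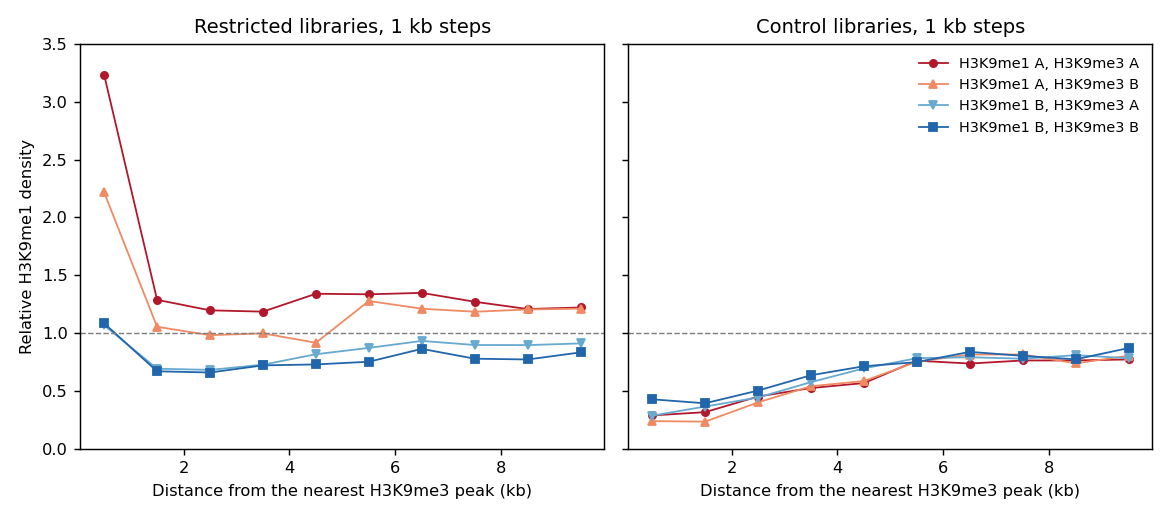
Relative H3K9me1 density in 1 kb steps of distance from the nearest H3K9me3 peak (x axis, kb), for the 4 pairs of restricted (left) and control (right) lists; each line is 1 pair and the dashed line is the list average of 1. In the restricted lists the first kb is above 1 in all pairs (1.07 to 3.23), and in the control lists it is below 1 in all pairs (0.239 to 0.428).

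In steps of 10 kb the 2 restricted H3K9me1 libraries differed most in the first step outside same-letter peaks, and the gap was smaller farther out. H3K9me1 A stayed near or above its average: around A peaks the 20 steps of 10 kb went from 1.49 at 0 to 10 kb to a lowest value of 1.11 at 130 to 140 kb, all above 1. Around B peaks it went from 1.24 to a lowest value of 0.953 at 150 to 160 kb, with 15 of 20 steps above 1. H3K9me1 B was lowest beside the peaks. Around B peaks it was lowest at 0 to 10 kb (0.789) and highest at 180 to 190 kb (0.969), below 1 in all 20 steps. Around A peaks it was also lowest at 0 to 10 kb (0.850), and reached 1.07 at 190 to 200 kb. A dip at 0 to 10 kb was present in the 4 control pairs too, at 0.576 to 0.661. Set against its own surroundings at 100 to 200 kb, the inside density was 6.40 times as high for A with A, 3.49 for A with B, 1.78 for B with A and 2.32 for B with B (H3K9me1 letter first). The same ratio in the controls was 0.613 and 0.604 for same-letter pairs. Restricted minus control in this ratio was 3.75 (exact permutation p = 0.333, two-sided, the smallest possible), and 1.71 without restricted A.

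**Figure D3:**
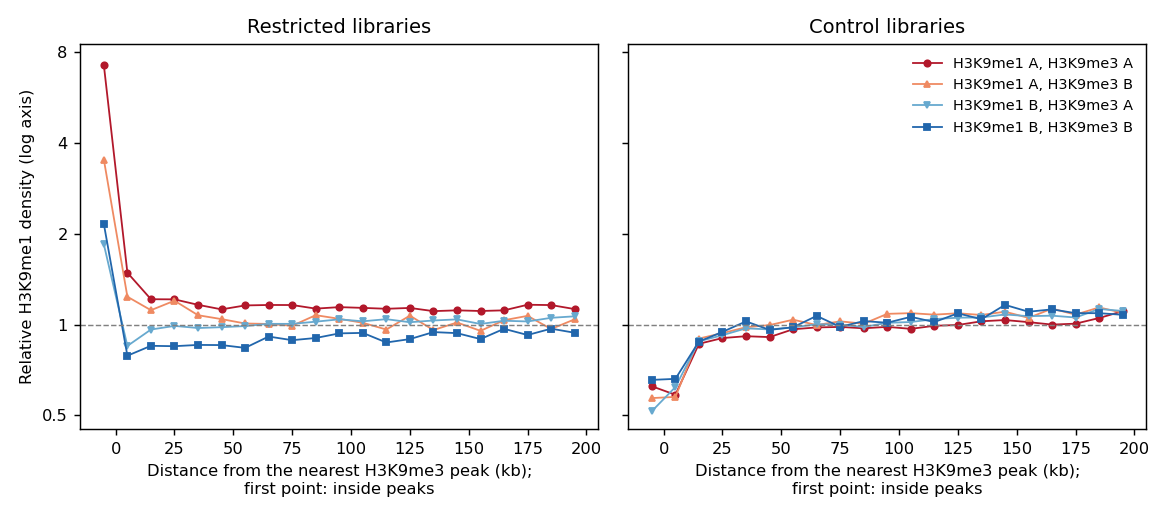
Relative H3K9me1 density (log axis) inside H3K9me3 peaks (first point of each line) and in 10 kb steps of distance to 200 kb (x axis, kb) for the 4 pairs of restricted (left) and of control (right) lists. Restricted lines start at 1.84 to 7.23 and drop to between 0.789 and 1.49 in the first step; control lines start at 0.517 to 0.656 and end at or above about 1.

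By place, H3K9me1 was densest in H3K9me3 peaks on chromosome arms and near chromosome ends, and less dense in those beside centromeres. The A list has 489 of its 1794 peaks within 5 Mb of a centromere gap, 196 in the first or last 2 Mb of a chromosome and 1109 on the arms. For A with A the relative densities were 4.56 beside centromeres, 8.71 at ends and 8.76 on arms. For B with B they were 1.82, 2.37 and 2.55. The crossed pairs gave 2.04, 5.63 and 4.99 for H3K9me1 A and 1.37, 2.04 and 2.14 for H3K9me1 B. Surroundings beside centromeres were also poor in H3K9me1, at 0.832 (A with A) and 0.595 (B with B) 100 to 200 kb away. Relative to those surroundings the centromeric peaks of B with B stood out by 3.07 times, more than the arm peaks (2.52). For A with A the order was the reverse (5.48 and 7.48). In the controls this ratio at centromeric peaks was 1.36 (A with A), 1.06 (B with B), 1.54 (A with B) and 0.766 (B with A). On control arms it was 0.480 (A with A) and 0.730 (B with B). The inside density of control centromeric peaks was below 1, at 0.809 (A with A) and 0.583 (B with B). In the restricted lists, the background implied by the authors' pileup and fold was higher in centromeric H3K9me3 peaks (median 6.35 in A and 20.3 in B) than in arm peaks (3.29 and 4.61). Its part in the difference between places was not tested.

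H3K9me1 was denser in narrow H3K9me3 peaks than in wide ones, and denser in peaks of high H3K9me3 fold than of low fold; width and fold were taken separately. In peaks under 500 bp the relative density was 10.3 (A with A), 5.51 (A with B), 2.56 (B with A) and 3.27 (B with B). In peaks of 2 kb or more it was 4.63, 1.246, 1.43 and 1.75. With H3K9me3 fold over background, density rose in all 4 pairs. For A with A it was 4.09 below a fold of 3, 8.33 from 3 to 4 and 11.9 at 4 or more (268 peaks). For B with B it was 1.80, 2.75 and 3.46, the last from only 26 peaks. Narrow and high-fold peaks had a lower implied background: in the A list its median was 3.52 in peaks under 500 bp and 11.1 in those of 2 kb or more. In the tertile of A peaks with the highest implied background the density was 5.22, against 9.22 in the middle and 8.58 in the lowest tertile. For B with B these were 1.80, 2.19 and 2.89. The part of the background in the order by width and fold was not tested. In the control same-letter pairs the narrowest peaks were also the richest class: density in peaks under 500 bp was 0.920 (A) and 1.18 (B). By fold, lowest class first, control density was 0.675, 0.522 and 1.12 for A with A and 0.561, 0.818 and 1.30 for B with B. The last values rest on 36 and 15 peaks. At a fold of 4 or more the crossed control pairs had 0.576 (A with B) and 0.683 (B with A). All 4 restricted pairs stayed above 1 in every class of width, fold and implied background.

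**Figure D4:**
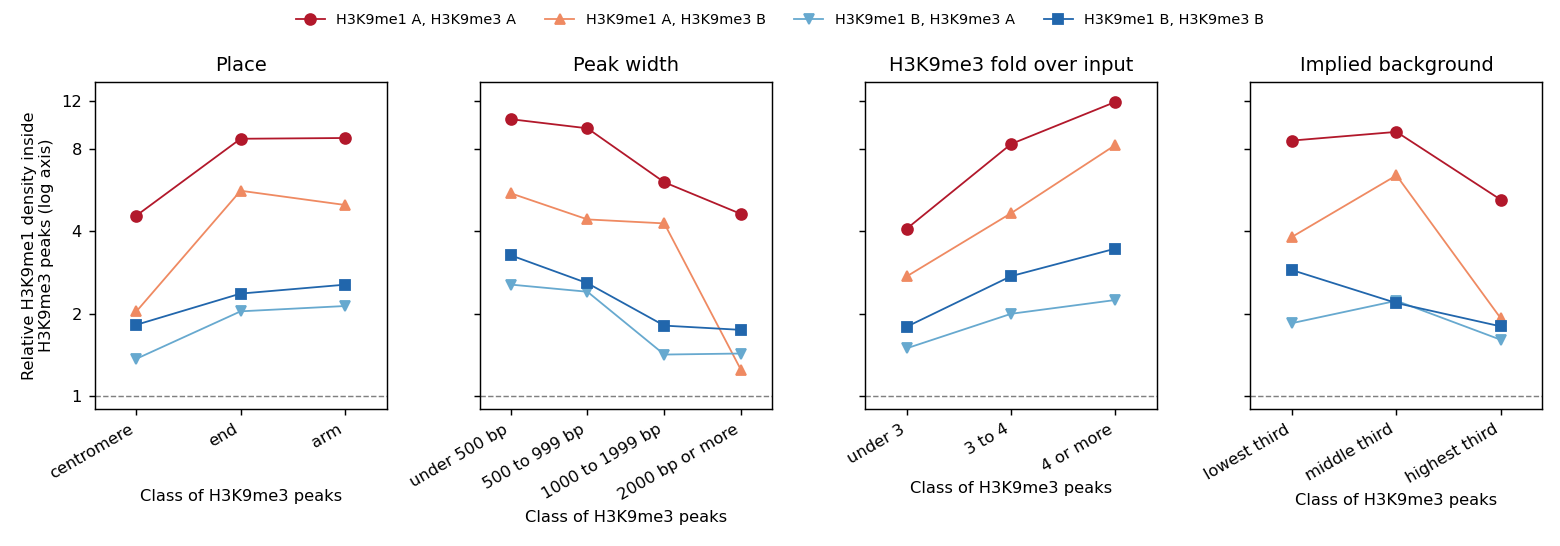
Relative H3K9me1 density (log axis) inside H3K9me3 peaks of restricted cells, by place, width, fold over background and tertile of implied background of the peaks (x axes); each line joins the values of 1 pair of lists. All points lie above the list average of 1, from 1.246 to 11.9.

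Peaks called in 1 restricted list alone were richer in H3K9me1 of their own letter than those called in both. The 307 A peaks that overlapped a B peak had a density of 5.11 in H3K9me1 A, and the 1487 A peaks that did not had 8.11. For B peaks with H3K9me1 B the values were 1.90 (285 peaks found in both lists) and 2.55 (323 peaks found in B alone). H3K9me1 A gave the opposite order over B peaks: 4.21 in those found in both lists and 2.37 in those found in B alone. A peaks that overlapped no control peak numbered 1219, with a density of 9.27 against 5.04 in the 575 that did. For B with B these were 2.89 and 1.83. The peaks called in 1 list alone were narrower, with a median of 601 bp against 1083 bp in A. The control letters went opposite ways. Control B peaks with H3K9me1 B had 0.857 in those of 1 control list and 0.560 in those of both, while control A with A had 0.532 and 0.731. For control peaks that overlapped no restricted peak, against those that did, the values were 0.848 and 0.564 (B with B) and 0.560 and 0.668 (A with A).

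The enrichment was present on every chromosome that the H3K9me1 lists cover. Taken against each chromosome's own share under H3K9me1, density inside peaks was above 1 on 21 of 21 chromosomes for A with A and A with B, and on 19 of 19 for B with A and B with B. For A with A it ranged from 4.30 on chromosome 17 to 12.6 on chromosome 13, with a median of 8.06. For B with B it ranged from 1.24 on chromosome 16 to 3.42 on chromosome 21, with a median of 2.40. In the control same-letter pairs it was above 1 on 4 of 20 chromosomes (A) and 2 of 10 (B).

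H3K9me1 regions that lay on H3K9me3 peaks were wider and stronger than those far from any peak. A wide region is more likely to touch a peak, so the widths are in part set by how the regions were picked. These widths, pileups and p-values are the authors' own and are compared only within a list. In restricted A, 1475 regions overlapped an A peak, with a median width of 645 bp, while the 314845 regions over 200 kb from any A peak had a median of 318 bp. Their median pileup was 3.54 against 2.58, and 10.9% against 0.578% had a −log10 p of at least 2. In restricted B, the 494 regions on B peaks had a median width of 496.5 bp against 374 bp, and 12.1% against 0.811% reached that strength. The fold over background differed less: medians were 1.97 and 1.85 in A and 1.84 and 1.83 in B. The implied background was higher on peaks, at 1.11 against 0.954 in A and 1.95 against 1.01 in B.

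The stronger the H3K9me1 region, the more it concentrated in H3K9me3 peaks. For A with A, relative density was 2.54 and 7.66 for the 2 classes of regions with a −log10 p under 1.5 (weakest first), 35.1 from 1.5 to 2 and 181 at 2 or more. For B with B it was 0.748, 1.68, 6.13 and 45.7, so the weakest class of B was not enriched. The strongest class is small, and most of it lay off peaks. A same-letter peak was overlapped by 161 of its 2574 regions in A (6.25%) and 60 of 6424 in B (0.934%). Over all regions of the 2 lists these shares were 0.381% and 0.0649%. In the controls the first 3 classes lay at or below about the list average for same-letter pairs (0.293 to 1.01). The strongest class reached 6.56 in A and 16.1 in B. Those 2 values rest on 52 of 27623 regions in A (0.188%) and 16 of 3846 in B (0.416%) that overlapped a peak. Over all control regions the shares were 0.0407% and 0.0321%. H3K9me1 of the strongest class was thus denser inside H3K9me3 peaks in control cells too. Of 32 regions of restricted A with a −log10 p of at least 4, 27 overlapped an H3K9me3 peak of restricted A, against 0.381% of all its regions. A peak of restricted B was overlapped by 6 (0.0867% of all regions), of control A by 5 (0.172%) and of control B by 6 (0.0906%). These H3K9me3 lists differ in size, with 1794, 638, 1296 and 762 peaks on the chromosomes covered. Restricted B listed 5 such regions. Of these 0 overlapped a peak of restricted A (0.152% of all its regions) or restricted B (0.0649%), and 1 a peak of control B (0.0606%).

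**Figure D5:**
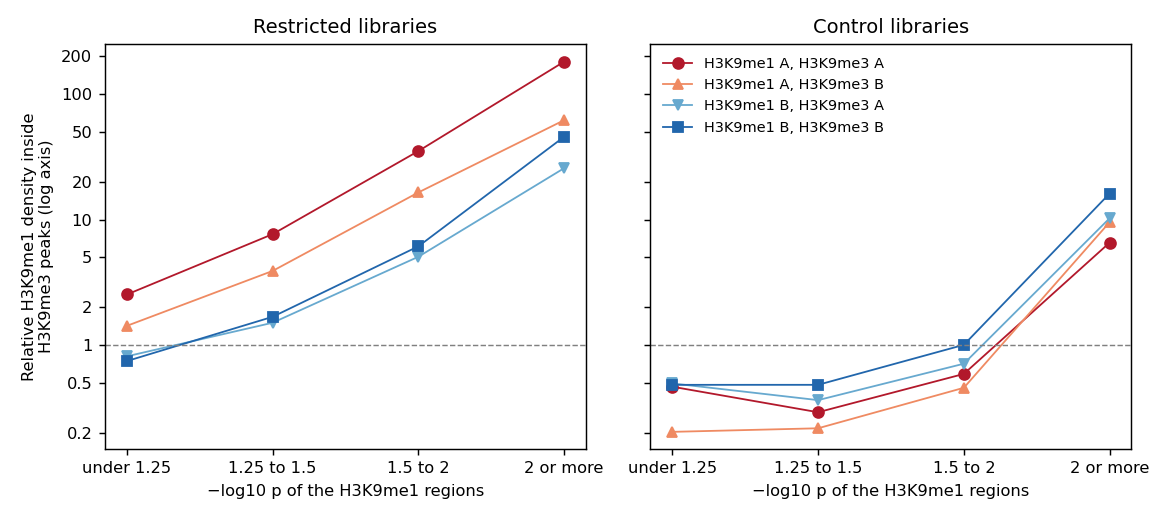
Relative H3K9me1 density inside H3K9me3 peaks (log axis) for H3K9me1 regions in 4 classes of −log10 p (x axis), for the 4 pairs of restricted (left) and control (right) lists; each line is 1 pair. Restricted same-letter lines climb from 2.54 to 181 (A) and from 0.748 to 45.7 (B); control lines exceed 1 clearly only in the strongest class.

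The KRAB zinc finger gene clusters of chromosome 19, a known H3K9me3 target, showed the same pattern. In the 19p12 cluster (19: 20 to 24 Mb, hg19) 20 A peaks had a relative density of 8.58 in H3K9me1 A, against 0.781 in the rest of the cluster. The 5 B peaks there had 2.67 in H3K9me1 B, against 0.566. In the 19q13.4 cluster (52 to 59 Mb) 27 A peaks had 8.53 against 1.66, and 18 B peaks had 2.37 against 1.01. All peaks of chromosome 19 had 7.37 (A with A) and 2.08 (B with B), close to the 7.22 and 2.16 on the other chromosomes. Neither control H3K9me1 list covers chromosome 19.

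The widest H3K9me3 regions, nearly all beside centromeres, behaved unevenly. Of 266 H3K9me3 regions called in both restricted lists on the 18 chromosomes, 184 held H3K9me1 A and 184 held H3K9me1 B. Both were held by 138 and neither by 36. Whether 138 exceeds what the separate counts would give was not tested. The widest was chr17:22244622-22261844 (hg19), 17223 bp beside the centromere gap. H3K9me1 A covered 1.67% of it and H3K9me1 B 15.6%, densities of 0.311 and 1.11. The H3K9me3 pileup signal there was 853 in A and 970 in B, against a median of 16.1 and 21.9 over all peaks. The part of such pile-up in these values was not tested. At chr10:42383269-42397126 the densities were 1.11 in A and 3.30 in B, and at chr2:92312540-92325769 they were 0.892 and 4.37. These are regions where the B library was the higher in relative density, unlike the average over all peaks. The region at chr2:92312540-92325769 was also rich in the controls, with 6.11 in A and 2.59 in B. The chr10:42383269-42397126 region had 2.47 and 0.887 in the controls. At chr21:11059042-11073025 the order was reversed, with 4.97 in A and 0.407 in B. On chromosome 16, 3 neighbouring regions differed: chr16:46385909-46396059 held no H3K9me1 in either library, chr16:46397939-46409080 had 0 in A and 1.84 in B, and chr16:46419479-46428910 had 3.19 and 1.55. The other 3 of the 10 widest regions were chr8:46848225-46857068 (0.693 and 2.42, with 1.58 in control A), chr4:49104392-49113008 (0 and 0.492) and chr1:228747861-228755322, on the long arm, with 2.99 and 1.33 and no H3K9me1 in either control.

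Among the 80 shared regions of 2 kb or more, the 5 with the highest mean density over restricted A and B held no control H3K9me1. Restricted A can weigh more in that mean, since its density can take higher values. Absence of control H3K9me1 was common among the 80 regions. Of those on chromosomes that control A covers, 48 of 73 (65.8%) held none of it. For control B it was 21 of 40 (52.5%). At chr7:157939486-157942075, near the end of 7q, H3K9me1 covered 86.1% in A and 54.3% in B, densities of 16.1 and 3.87. At chr17:30504598-30506962 it covered 71.2% and 43.2%, densities of 13.3 and 3.08. At these 2 regions both control H3K9me1 lists cover the chromosome and hold none. The other 3 were dense mainly in A: chr11:1436513-1440564 had 15.3 and 0.887, chr8:43092672-43097292 had 11.6 and 1.94, and chr16:33037329-33040499 had 12.6 and 0.901. Each control list that covers those chromosomes held none there. The H3K9me3 fold at chr8:43092672-43097292 was 16.1 in restricted A and 1.73 in restricted B. Its H3K9me3 pileup signal was 693 in A and 2912 in B, and these signals are not compared between lists. Of the 80 regions, 6 held no H3K9me1 in either restricted library. The 5 widest of these were the chromosome 16 region above, chr17:21902652-21906667, chr6:58776244-58779437, chr19:37770990-37774021 and chr16:33973526-33975894. All of these but the chromosome 19 region lie within 5 Mb of a centromere gap.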

How the data were processed

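Peak lists of 8 ChIP libraries were used, the 4 restricted as members and the 4 control for comparison; groups and letters came from sample titles, and input libraries were not analysed here. Per the submitters' processing notes, the authors' tools were MACS2 (2.1.1.20160309), SAMtools (1.5) and Bowtie2 (2.1.0), on hg19. Per the file headers, broad peaks were called per library, H3K9me3 at q cutoffs of 0.05 and 0.1 with all duplicates kept, and H3K9me1 at p cutoffs of 0.0001 and 0.1 with 1 read per position. Fragment length was estimated at 302 bp for restricted H3K9me3, and at 100 and 101 bp for restricted H3K9me1 (tag size 101 bp). Numbers and widths of regions are therefore not comparable between the marks. The deposited pileup is a signal, the deposited fold is a ratio of pileup to local background, and p and q were deposited as −log10, each averaged over its region. The implied background is (pileup + 1) divided by fold, minus 1.

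Covered shares were computed with Python 3.11.15 and NumPy 2.4.6 on chromosomes 1 to 22 and X, each as long as its highest region end in any list. A distance step holds the bases whose nearest H3K9me3 peak lies that far away. A centromere gap is the widest region-free stretch of a chromosome, its start included, so that of an acrocentric chromosome spans the short arm. On 200 simulated interval sets the code gave the same covered lengths as direct counting of bases (0 differed). Values were compared by exact permutation over the 6 relabellings of 4 same-letter pairs. Regions were named by rule: the 10 widest found in both restricted lists, and, among those of 2 kb or more, the 5 with the highest and 5 with the lowest mean density. The members, classes and lists were chosen with earlier results of these data known. No hg19 genome or annotation was used, so regions are not assigned to genes and no sequence is shown. Y and unplaced sequences were left out.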

Additional observations from a re-analysis of the deposited data

Results flagged for a closer look

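Inside density differed in direction between the conditions: all 4 restricted pairs lay above the list average and all 4 control pairs below it, and restricted minus control over same-letter pairs was 4.05 (exact permutation p = 0.333, two-sided, the smallest that 2 against 2 can give). The 4 pairs of a condition share libraries. The opposite direction held over the whole lists but not among stronger H3K9me1 regions. With H3K9me1 of −log10 p of at least 1.5 both conditions lay above the average (26.5 and 1.32). At 2 or more the control same-letter densities were 6.56 and 16.1, from 52 and 16 regions that overlapped a peak.

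Outside the chromosomes used, H3K9me1 of restricted A listed 34 regions on the unplaced sequence chrUn_gl000212, where the other 3 H3K9me1 lists, controls included, have 0. The H3K9me3 lists have 6 and 4 peaks there in restricted A and B and 2 and 1 in control A and B. Whole sequences are missing from H3K9me1 lists, so an entry of 0 need not mean absence.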

How the results depend on the processing

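The inside density of the restricted pairs, its ratio to the far flank, the same-letter excess and both differences from control kept their direction under every alternative run, although the control values themselves did not stay below 1 in all of them. H3K9me1 regions with −log10 p of at least 1.5 moved the first 3 beyond the spread of the letters, to 26.5, 21.6 and 13.7; with them the control inside density was also above 1, at 1.32. Leaving out 1 letter gave 2.15 to 7.23, 2.32 to 6.40 and 0.310 to 3.71. The differences from control ranged from 1.51 to 6.59 and from 1.71 to 5.80 when 1 pair was left out, and over all alternatives from 1.51 to 25.1 and from 1.71 to 20.4. With the letter as a replicate block the differences were 4.05 and 3.75 (exact permutation within letters, p = 0.5, the smallest possible). The letters show a shared input but not a shared culture. With equal numbers of H3K9me1 regions (387436, the strongest of each list) the mean inside density was 5.24 against 0.690 in control. With H3K9me3 peaks of −log10 q of at least 5, control density inside over far was 1.32, against 3.69 in restricted cells. The control inside density with these peaks was 0.898, against 3.07. Merging H3K9me3 peaks within 1 kb changed no value. Crossed pairs, control H3K9me3 peaks and merged peaks of all lists were added after the data were seen and gave 2.68, 2.45 and 3.19. Median H3K9me1 pileup signal was 2.59 in restricted A and 2.86 in restricted B, so values at single regions are uncertain.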

Other observations

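Density inside H3K9me3 peaks also varied with the width of the H3K9me1 regions; the split was made after the data were seen and has no test. In restricted A with A peaks the relative density was 2.26 for H3K9me1 regions under 250 bp and 25.7 for those of 1 kb or more. In restricted B with B peaks it was 1.29 and 2.60. In control A with A peaks it was 0.754 and 0.567, and in control B with B peaks 0.796 and 0.239. The crossed control pairs went both ways, from 0.396 to 0.694 for H3K9me1 A and from 0.665 to 0.0469 for H3K9me1 B.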
